A study of Homo sapiens with 14 samples.

Results

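The H3 pair of libraries measured, for every guide RNA of the H3 sublibrary of a genome-wide CRISPR interference screen, how often the guide was found in the brightest and in the dimmest quartile of sorted cells. All guides of the H3 count tables were taken: 16904 guides, of the 91463 guides in the 6 sublibraries that could be compared. They comprised 290 non-targeting guides and guides against 3323 targets (a gene symbol together with a start label) of 3093 genes. Of these targets, 3321 were measured by 5 guides and 2 by 4. The screen was run in HEK293 FLP-In cells, which descend from human embryonic kidney and hold 1 site where a transgene can be recombined into the genome. A clonal line expressed the delta opioid receptor fused to the peroxidase APEX2 (SSF-DOR-APEX2) and the repressor dCas9-KRAB-BFP. Cells carrying H3 guides were grown for 8 days after transduction at a multiplicity of about 0.2, with puromycin at 0.75 µg/ml for 3 days. They were then given the opioid peptide DADLE at 10 µM for 90 minutes and reacted with Amplex UltraRed at 100 µM and hydrogen peroxide at 50 µM for 1 minute. The H3 bottom library held the dimmest and the H3 top library the brightest quartile of these cells, with 1 library in each group. Both groups carried the same transgenes and both were stimulated, so receptor loss after the agonist and other changes in the APEX2 signal cannot be told apart.

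In CRISPR interference a guide RNA directs dCas9 fused to the KRAB repressor domain to the start of a gene and lowers its transcription without cutting the DNA. The delta opioid receptor is internalised after agonist binding and is then largely sorted through endosomes to lysosomes, where it is degraded. APEX2 uses heme and hydrogen peroxide to turn Amplex UltraRed into a fluorescent product, so brightness follows the amount of reachable and active enzyme. The H3 sublibrary gathers many genes of protein folding, ubiquitin and proteasome function, translation and membrane traffic. Each value below is the mean over the guides of a target of log2(top/bottom), from library shares centred on the H3 non-targeting guides. Positive values mark guides that were more frequent in bright cells and negative values guides that were more frequent in dim cells.

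Repression acts around the gene start, and the stretches upstream of the starts of 5 genes that recur below are shown for that reason. They are the 250 bases before a start in RefSeq (GRCh38.p14), read 5′ to 3′ on the strand of the gene. Guide positions are printed without a build, since none is named for them in the sources used here. Capitals mark matches, on either strand, to the core TGACNNNGC of the antioxidant response element in ADRM1 and TXNL1, and to the core TCACGTGA of the CLEAR element, known from lysosomal genes, in VPS11.
VPS16, chr20:2840495-2840744, plus strand: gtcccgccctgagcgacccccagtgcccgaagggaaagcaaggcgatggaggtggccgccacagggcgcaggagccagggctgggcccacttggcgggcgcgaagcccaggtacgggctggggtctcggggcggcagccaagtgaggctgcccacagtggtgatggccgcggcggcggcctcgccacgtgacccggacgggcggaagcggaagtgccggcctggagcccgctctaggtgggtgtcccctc
VPS11, chr11:119067568-119067817, plus strand: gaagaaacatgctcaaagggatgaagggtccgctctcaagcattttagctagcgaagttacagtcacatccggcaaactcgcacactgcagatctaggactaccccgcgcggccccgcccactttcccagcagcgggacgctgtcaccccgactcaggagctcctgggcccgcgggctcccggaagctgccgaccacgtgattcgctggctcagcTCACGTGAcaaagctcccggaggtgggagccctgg
DNAJC13, chr3:132417252-132417501, plus strand: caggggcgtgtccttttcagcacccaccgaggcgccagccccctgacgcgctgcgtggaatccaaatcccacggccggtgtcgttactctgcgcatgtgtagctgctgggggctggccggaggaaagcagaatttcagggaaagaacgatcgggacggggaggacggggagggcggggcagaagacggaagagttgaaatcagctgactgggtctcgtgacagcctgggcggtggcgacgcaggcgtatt
ADRM1, chr20:62302646-62302895, plus strand: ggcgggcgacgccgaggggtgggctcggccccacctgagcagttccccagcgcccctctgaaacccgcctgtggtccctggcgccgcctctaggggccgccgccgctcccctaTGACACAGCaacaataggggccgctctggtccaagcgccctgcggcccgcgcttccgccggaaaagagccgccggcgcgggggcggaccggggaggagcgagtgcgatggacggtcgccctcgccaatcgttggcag
TXNL1, chr18:56638593-56638842, minus strand: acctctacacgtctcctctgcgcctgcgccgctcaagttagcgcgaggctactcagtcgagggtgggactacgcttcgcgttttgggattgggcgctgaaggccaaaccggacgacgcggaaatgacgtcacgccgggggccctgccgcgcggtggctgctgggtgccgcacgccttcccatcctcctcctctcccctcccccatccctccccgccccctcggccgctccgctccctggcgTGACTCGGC

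Such a match is a description of the letters and not a binding site. The window of VPS16 and that of DNAJC13 held no match to the CLEAR core. TCACGTGA was found in 1.04% of the 27305 genes with such windows, in 1 of 9 genes of the HOPS and CORVET list with a window and in 1 of 14 of the V-ATPase list. TGACNNNGC was found in 13.2% of all genes, in 5 of 18 genes of the 20S core particle list and in 13 of 30 genes of the 19S list. Of 9 called genes of the 19S list with a window, 2 held the core, and these were ADRM1 and TXNL1, named here after their values were seen.

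The H3 libraries held 27478717 counts in the bottom and 31762301 in the top library, with a median of 1584 and 1831 counts per listed guide. The 290 non-targeting guides had an SD of 0.215 on the log2 scale, against 0.0565 from counting alone, and 0 of them lay beyond 1 in either direction. Among 16613 targeting guides, 225 lay above 1 and 106 below -1. Each target's guides were set against the non-targeting guides in a two-sided permutation test, adjusted by Benjamini-Hochberg over the 18116 targets of all 6 sublibraries. A target is called at an adjusted p of 0.05 or below, and the smallest adjusted p that the 100000 draws could give was 6.78e-04. These p-values compare the libraries of 1 sort and carry no replicate check.

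Of the 3323 H3 targets, 249 were called, or 7.49%. In the top library 138 were higher, or 4.15%, with a median of 0.54 and a range from 0.32 to 2.11. In the bottom library 111 were higher, or 3.34%, with a median of -0.47 and a range from -0.31 to -1.39. The count of calls in each gene list below is to be read beside these 2 shares, and no list was tested against them. The other 5 sublibraries had 454 calls among 14793 targets, or 3.07%, ranging from 0.558% in H7 to 5.98% in H2. The non-targeting SD was 0.333 in H7 and 0.240 in H2, and the differences between sublibraries were not tested. All guides lay on the side of the mean in 96 of the 138 targets called toward the top and in 71 of the 111 called toward the bottom. A target named below as not called was singled out for its place in a complex, after values were seen. With edgeR's quasi-likelihood test 125 targets were called and with an exact rank sum test 148, and a named call that ended under either is marked as such. Just inside the threshold were TMEM147 (-0.33), RPL14 (-0.31) and P4HA3 (-0.37), none of which kept its call with edgeR; TMEM147 and P4HA3 also lost theirs under the exact rank sum test. Just outside it were DNAJB5 at its P1 start (0.32), USP4 (0.31) and RPLP1 (-0.31).

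A small set of guides was sorted again. For 126 guides of 33 H3 targets, counted by name, the same strand and position were also listed under another gene of another sublibrary, which went through a separate sort. The CRYAB guides among them are listed in H3 for HSPB2 as well, with the same counts, and entered under each name. Some guides recurred in more than 1 sublibrary, which gave 129 pairings. Only pairs of targets that share at least 2 guides were taken, and they are described here because they give a second measurement of H3 guides. Their log2 ratios in both sorts had a Pearson r of 0.84 across pairings, and of 0.39 over the 114 pairings of targets not called in H3. The differences between sorts had an SD of 0.322. Of 15 pairings beyond 0.5 in H3, 13 had the same sign in the other sort. The 4 called H3 targets with such guides are given next.

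RNASEK, which encodes a small membrane protein associated with the V-ATPase, had 3 guides that were also listed for C17orf49 in H5. In H3 their counts went from 562, 667 and 846 in the bottom to 3322, 2692 and 3975 in the top library, with a mean of 2.07. In H5 the counts went from 881, 990 and 545 to 2743, 2013 and 1681, with a mean of 1.73. All 3 guides were thus far toward the bright side in both sorts. The other RNASEK guides had 0.50 and 0.34, and the target's mean was 1.41 ± 0.93 (SD, n = 5 guides). NEDD8, a ubiquitin-like protein that activates cullin ligases, shared 3 guides with the readthrough gene NEDD8-MDP1 in H1. They had 2.64, 2.45 and -0.10 in H3 and 3.32, 3.08 and -0.03 in H1, so that the guide near 0 in H3 was near 0 in H1. The call of NEDD8 ended under the exact rank sum test. ESYT1, an endoplasmic reticulum contact-site protein, shared all 5 guides of its P2 start with ZC3H10, and their mean was -0.46 in H3 and -0.52 in H5. The H3 call of ESYT1 ended with edgeR and the exact rank sum test. RPL36A, a large-subunit ribosomal protein, shared 4 guides with RPL36A-HNRNPH2, with a mean of 0.55 in H3 and 0.43 in H7. For these guides the repressed gene cannot be told apart from its overlapping partner.

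DNAJC13, the endosomal J-domain protein in the title of the series, ranked 42 of the 3323 H3 targets from the bright side. Its guides had 1919, 1245, 1537, 1470 and 1455 counts in the bottom library and 3586, 3006, 3219, 2337 and 2430 in the top library. Every guide was more frequent in bright cells, with log2 ratios of 0.71, 1.08, 0.87, 0.47 and 0.54. The mean was 0.73 ± 0.25 (SD, n = 5 guides; permutation adjusted p 6.78e-04), or 1.66-fold, and the call held in each of 16 alternatives. DNAJC13 thus lay above 1 for 1 guide only, and its guides were somewhat more abundant than non-targeting guides, at 0.35 on the log2 scale. Over all H3 targets 4.15% were called toward the top and 3.34% toward the bottom library, and the DNAJ family lay near these shares. Of its 49 targets, 2 were called toward the top and 1 toward the bottom library, with a median of 0.02. The others were SEC63 (0.44 ± 0.21), a partner of the translocon, and DNAJC8 (-0.45 ± 0.51), a splicing-associated member whose call ended with edgeR and the exact rank sum test. OPRD1, the gene of the delta opioid receptor, is not among the H3 targets.

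Retromer, the WASH complex and Commander recycle cargo from endosomes, and DNAJC13 acts beside WASH on these membranes. Of 14 targets on this list, 3 were called toward the top and 0 toward the bottom library, and DNAJC13 itself is 1 of those 3. The list's median was 0.01 beside 0.01 over all H3 targets. VPS29, shared by retromer and the related retriever complex, had 0.72 ± 0.57, with 4 guides between 0.83 and 1.13 and 1 at -0.27. Its call ended under the exact rank sum test, and 1 of its guides is listed for RAD9B as well. CAPZB, an actin capping subunit that also belongs to the WASH complex, had 1.20 ± 1.26, a mean that rested on 2 of 5 guides. Those guides went from 660 and 772 counts to 4781 and 4954, whereas the other guides had 0.12, 0.48 and 0.27, and the call ended with edgeR's quasi-likelihood test. The retromer core subunits VPS35 (-0.10 ± 0.33) and VPS26A (-0.02 ± 0.25) and the retriever-linked SNX17 (-0.16 ± 0.11) were not called. Of 13 other sorting nexin targets, 2 were higher in the top library. SNX24 had 0.71 ± 0.26 with guides from 0.31 to 0.91, and SNX13 had 0.43 ± 0.35, a call that ended with edgeR.

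HOPS and CORVET tether endosomes to each other and to lysosomes before fusion. Of the 15 targets on this list, 8 were called toward the top and 0 toward the bottom library, and the list's median was 0.34. VPS16, a subunit of the shared core, had the highest mean of all H3 targets. Its guides had 680, 704, 456, 1015 and 834 counts in the bottom and 2227, 4196, 2816, 3579 and 5887 in the top library, so each guide was more frequent in bright cells. The mean was 2.11 ± 0.51 (SD, n = 5 guides), a 4.32-fold difference in share. The guides are placed by their names at positions 2821367 to 2821446 of chromosome 20, within 79 bases of each other.

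VPS39, the HOPS subunit known to bind RAB7, had 1.01 ± 0.42, with 4 guides between 1.14 and 1.28 and 1 at 0.26. VPS41, the other HOPS-specific subunit, had 1.19 ± 0.81 at its P1 start, where 2 guides reached 1.93. At its P2 start the mean was 0.00 ± 0.16, with the starts about 20297 bases apart. VPS11 of the core, whose upstream window holds the CLEAR core shown above, had 0.80 ± 0.44 with all guides above 0. VPS18 (0.55 ± 0.52) and VPS33A (0.40 ± 0.48) had guides on both sides of 0, and their calls ended by the exact rank sum test and with edgeR. VPS8 of CORVET (0.29 ± 0.22) and VPS33B of the CHEVI complex (-0.01 ± 0.16) were not called. RABGEF1 (0.42 ± 0.25), an exchange factor for RAB5, shares all 5 guides with KCTD7, so those cannot be told apart.

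The V-ATPase acidifies endosomes and lysosomes. Of its 18 H3 targets, 4 were called toward the top and 0 toward the bottom library, with a median of 0.11. ATP6AP1, an accessory subunit, had 850, 592, 934, 717 and 2382 counts in the bottom and 3666, 2256, 3337, 3383 and 3840 in the top library. Of its guides 4 lay between 1.64 and 2.04 and 1 at 0.49, and the mean was 1.56 ± 0.62. ATP6V0C, the proteolipid of the membrane ring, had 1.32 ± 1.02, with 4 guides between 1.07 and 2.22 and 1 at -0.33. Its call ended under the exact rank sum test. ATP6V1H of the cytosolic sector had 0.61 ± 0.34 and WDR7, a partner of the assembly factor RAVE, 0.40 ± 0.23.

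ESCRT complexes sort ubiquitinated cargo into the vesicles of multivesicular bodies. Of 23 targets, 2 were higher in the top library: CHMP6, which nucleates ESCRT-III, and UBAP1, a subunit of ESCRT-I. CHMP6 had 476, 1032, 1148, 706 and 1005 counts in the bottom and 1781, 2862, 2070, 1722 and 1871 in the top library. All 5 guides lay above 0, from 0.65 to 1.71, with a mean of 1.08 ± 0.43. UBAP1 had 0.61 ± 0.70, with guides from -0.18 to 1.62, and its call ended with edgeR and the exact rank sum test. The deubiquitinase USP8 (0.30 ± 0.35), VPS36 (0.30 ± 0.49) and CHMP2A (0.29 ± 0.32) were not called.

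RAB GTPases mark membranes for transport and SNAREs fuse them. Of 23 RAB GTPase targets, RAB43 (0.34 ± 0.29) and RAB10 (0.33 ± 0.29) were higher in the top library, and of 23 autophagy targets GABARAP (0.32 ± 0.17) was. All of these calls ended with edgeR, and that of RAB10 also under the exact rank sum test. Of 24 SNARE and SM protein targets, 30 targets of lysosomal enzymes and their sorting and 13 of clathrin, dynamin and endocytosis, 0 were called in each list. Their medians were 0.01, 0.01 and -0.00. GAPVD1, a regulator of RAB5 and endocytosis that stood in no list and is named after its value was seen, had 0.80 ± 0.47 with 4 guides between 0.84 and 1.10 and 1 at -0.03.

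The proteasome degrades ubiquitinated proteins through a 20S core and a 19S regulatory particle. Of 26 targets of the core list, 10 were called toward the top and 0 toward the bottom library, with a median of 0.15. Of 34 targets of the regulatory particle and activator list, 8 were called toward the top and 2 toward the bottom library, with a median of 0.09. PSMD4, the ubiquitin receptor also called Rpn10, had 264, 465, 924, 238 and 334 counts in the bottom and 1587, 1758, 2039, 940 and 1403 in the top library. Its mean was 1.74 ± 0.52, with guides from 0.95 to 2.39. PSMB2 had 1.55 ± 0.49, PSMA5 1.38 ± 0.36, PSMC4 1.20 ± 0.56 and PSMD7 1.15 ± 0.25 (SD, n = 5 guides each), with all of their guides above 0. The inducible or tissue-restricted subunits PSMB10 (0.10 ± 0.22) and PSMB11 (-0.06 ± 0.21) were not called.

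Guides against 1 proteasome gene often parted into shifted and unshifted ones. PSMD14, the deubiquitinase of the lid, had guides at 1.66 and 1.70 and guides at -0.32, -0.06 and -0.31, and only 2 of 5 lay on the side of its mean of 0.53 ± 1.05. Its call ended with edgeR and the exact rank sum test, and the median of its guides was -0.06. Over the 20S list, 34 of 130 guides had an abundance (both libraries together, relative to non-targeting guides) below -1 on the log2 scale. These rare guides had a median log2 ratio of 0.99, and the other 96 had 0.02. Over the 19S list the medians were 1.05 for 26 rare guides and -0.02 for the other 144. Over all targeting guides of H3 they were 0.04 for 1317 rare guides and 0.01 for 15296 others, and over non-targeting guides 0.05 and -0.01. The abundance is taken from the same counts as the ratio, and the guides' starting abundance in the library was not measured here. Subunits that were not called, such as PSMD3 (-0.07 ± 0.86), PSMC6 (-0.20 ± 0.76) and PSMC3 (-0.04 ± 0.67), had SDs well above the 0.198 that was the median over all H3 targets.

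Of the regulatory particle list, the members higher in the bottom library were ADRM1 (-0.41 ± 0.45), a ubiquitin receptor that docks the deubiquitinase UCHL5, and TXNL1 (-0.39 ± 0.26), a thioredoxin-like protein bound to the particle. UCHL5 itself had -0.18 ± 0.36 and was not called. The call of ADRM1 ended with edgeR and that of both under the exact rank sum test. NFE2L1, the transcription factor that raises proteasome genes when the proteasome is impaired, was higher in the top library. Its guides had 568, 166, 1367, 1358 and 1325 counts in the bottom and 1639, 370, 2263, 2207 and 1725 in the top library, with a mean of 0.70 ± 0.45. DDI2, the protease that activates NFE2L1, had 0.21 ± 0.16 and was not called. VCP, the segregase that unfolds proteins ahead of the proteasome, had 1.07 ± 1.08, with 3 guides at 2.08, 1.22 and 2.15 and the others at -0.04 and -0.04. Of 31 targets of the VCP list it was the 1 call, and the call ended with edgeR and the exact rank sum test.

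Ubiquitin ligases made up a large share of H3 and gave few calls. F-box proteins had 0 calls in 63 targets and TRIM ligases 0 in 63. BTB-Kelch and SOCS adaptors had 1 in 104, the KCTD7 target that shares its guides with RABGEF1. RNF and MARCH ligases had 3 in 101. RNF167, a membrane-bound ligase of endosomes and lysosomes, led these at 1.33 ± 0.37. Its guides had 778, 506, 931, 1195 and 799 counts in the bottom and 3242, 1602, 2711, 2504 and 1993 in the top library, each more frequent in bright cells. RNF10 had 0.55 ± 0.61, a call that ended with edgeR and the exact rank sum test, and RNF214 -0.72 ± 0.18, the latter with all guides between -0.52 and -0.88. Of 21 HECT ligase targets UBE3C (-0.37 ± 0.22), which associates with the proteasome, was higher in the bottom library, a call that ended under the exact rank sum test. Of 50 targets on a list of other ubiquitin ligases, 2 were called toward the top and 1 toward the bottom library. SYVN1 and CBLL1, described further below, were among these calls.

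Conjugating enzymes pass ubiquitin from the activating enzyme to the ligases. Of 35 ubiquitin-conjugating enzyme targets, 4 were called toward the top and 1 toward the bottom library, with a median of 0.10. They were UBE2R2 (0.44 ± 0.73), UBE2V1 (0.42 ± 0.16), UBE2D3 (0.35 ± 0.18) and UBE2V2 (0.33 ± 0.33), and UBE2W (-0.33 ± 0.27) toward the bottom. UBE2V1 and UBE2V2 are the catalytically inactive partners of UBE2N in building K63-linked chains. The calls of UBE2R2, UBE2V2 and UBE2W ended with edgeR and the exact rank sum test. Of 81 deubiquitinase targets, 3 were higher in the top library: USP39 at its P1 start (0.61 ± 0.51), which is also a splicing factor, PSMD14, and USP5 at its P1 start (0.41 ± 0.31), which takes apart free ubiquitin chains. The USP5 guides lie within 84 bases of guides for CDCA3, which was called at 0.70 in H2, so these genes cannot be told apart there. The calls of USP39, PSMD14 and USP5 ended with edgeR. UFL1, the ligase for the ubiquitin-like protein UFM1, which modifies ribosomes at the endoplasmic reticulum, had 0.44 ± 0.14 and was called toward the top.

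The CCT chaperonin folds actin, tubulin and WD-repeat proteins. Of its 9 targets, 7 were called toward the top and 0 toward the bottom library, with a median of 0.93, the highest of the lists with at least 5 targets. CCT4 had 457, 575, 399, 280 and 709 counts in the bottom and 1833, 2082, 1768, 1251 and 2680 in the top library. Its guides lay between 1.66 and 1.96, and its mean was 1.82 ± 0.13. TCP1 (1.38 ± 0.45), CCT6A (1.38 ± 0.30) and CCT2 (1.21 ± 0.29) had all guides above 0. CCT7 (0.93 ± 0.84), CCT5 (0.58 ± 0.94) and CCT8 (0.57 ± 0.61) did not, and their calls ended with edgeR and the exact rank sum test. CCT6B, a testis form, had -0.00 ± 0.09, and CCT8L2 -0.07 ± 0.40.

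PDCL, a co-chaperone that works with CCT in the folding of G protein beta subunits, was also higher in the top library, at 0.79 ± 0.25 with guides from 0.46 to 1.11. Prefoldin delivers actin and tubulin to CCT. Of 14 targets of the prefoldin and URI complex list, 1 was called toward the top library, PDCL, and 2 toward the bottom. The other 11 were not called, and the list's median was -0.04. PFDN2 had guides at -0.99, -0.85, -0.44, -0.93 and -0.27 with a mean of -0.70 ± 0.32, and PFDN6 had -0.34 ± 0.24. The call of PFDN6 ended with edgeR and the exact rank sum test.

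HSP70 chaperones bind unfolded stretches of proteins in the cytosol, the endoplasmic reticulum and mitochondria. Of 28 targets of the HSP70 and HSP110 list, 2 were higher in each library and 24 were not called, with a median of 0.00. HSPA5 (0.46 ± 0.61), the chaperone BiP of the endoplasmic reticulum, and HYOU1 (0.41 ± 0.35), its exchange factor, were higher in the top library. HSPA8 (-0.51 ± 0.36), the constitutive cytosolic member, and HSPA4 (-0.48 ± 0.38), a cytosolic exchange factor, were higher in the bottom library. Of 21 targets of HSP90 and its co-chaperones, 2 were called toward the bottom and 0 toward the top library, with a median of 0.03. Those called were HSP90AA1 (-0.31 ± 0.15) and STIP1 (-0.34 ± 0.08), which links HSP70 to HSP90. The other 19 were not called, HSP90AB1 (0.02 ± 0.19) among them. The guides of STIP1 lay within a narrow range, from -0.48 to -0.29. The calls of HSPA5, HYOU1, HSPA4, HSPA8 and HSP90AA1 ended with edgeR, and those of HSPA5 and HYOU1 under the exact rank sum test as well.

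In the endoplasmic reticulum, the translocon passes new secretory and membrane proteins across or into the membrane. Of 26 targets of the translocon, signal peptidase and tail-anchoring list, 3 were higher in each library. SEC61A1, the channel itself, had 1608, 840, 1103, 1524 and 957 counts in the bottom and 1371, 419, 755, 797 and 577 in the top library at its P1 start. Every guide was below 0 and the mean was -0.88 ± 0.31, while the P2 start had 0.11 ± 0.10. SEC61B, another channel subunit, had -0.52 ± 0.24, and the signal peptidase subunit SPCS3 at its P1 start -0.34 ± 0.26. SEC63 (0.44 ± 0.21), SSR4 (0.42 ± 0.28) and SRP19 (0.37 ± 0.12), a subunit of the signal recognition particle, were higher in the top library. Of 37 targets of ER-associated degradation, SYVN1, the ligase Hrd1, had 0.62 ± 0.36 and HM13, the signal peptide peptidase, -0.33 ± 0.24. The calls of SSR4, SPCS3 and HM13 ended with edgeR, and those of SPCS3 and HM13 also under the exact rank sum test. Of 27 targets of N-glycan synthesis, 0 were called, with a median of -0.01.

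The factor eIF2 brings the initiator tRNA to the ribosome, and its phosphorylation, which blocks eIF2B, sets off the integrated stress response. Of 10 targets of eIF2, its exchange factor eIF2B and related genes, a list split from a wider one after values were seen, 5 were called toward the top and 0 toward the bottom library, with a median of 0.42. EIF2B5, the catalytic subunit of eIF2B, had 660, 943, 658, 474 and 713 counts in the bottom and 2374, 2769, 2412, 990 and 1925 in the top library. Its mean was 1.36 ± 0.33, and each guide was more frequent in bright cells. EIF2B4 had 1.01 ± 0.81, EIF2B3 0.99 ± 0.30, EIF2S2 0.69 ± 0.60 and EIF2S1 0.65 ± 0.60. EIF2B2 (-0.08 ± 0.11) and EIF2B1 (0.18 ± 0.26) were not called. With edgeR the calls of EIF2S1 and EIF2S2 ended, and under the exact rank sum test those of EIF2B4 and EIF2S1.

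Of 16 targets of the unfolded protein and integrated stress responses, 3 were higher in the top library, EIF2S1 and NFE2L1 among them, with a median of 0.18. ATF5, a transcription factor of the stress response, had 596, 696, 418, 905 and 350 counts in the bottom and 1458, 1512, 948, 1337 and 1062 in the top library. Its mean was 0.95 ± 0.38. Its guides lie within 3 bases of guides for NUP62, a nucleoporin gene that had 1.47 in H2, so the 2 genes cannot be told apart there. ATF4 (0.20 ± 0.10), ATF6 (0.26 ± 0.16) and XBP1 (-0.19 ± 0.15) were not called.

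Ribosomal proteins were the group with most calls toward dim cells. Of 38 targets of the small subunit, 23 were called toward the bottom and 0 toward the top library, with a median of -0.39. Of 57 targets of the large subunit, 7 were called toward the bottom and 1 toward the top library, with a median of -0.09. The lists were split by subunit after values were seen, and that difference was not tested. RPS28 had 669, 2592, 2086, 1185 and 2199 counts in the bottom and 354, 1919, 1082, 785 and 1577 in the top library, with every guide below 0 and a mean of -0.87 ± 0.24. RPS27A (-0.87 ± 0.25), which is made as a fusion with ubiquitin, RPS18 (-0.86 ± 0.31) and RPSA (-0.84 ± 0.25) had all guides below 0 too. RPS24 had -0.92 ± 0.61, with guides from -1.44 to -0.10. On the large subunit RPL10A was lowest at -0.58 ± 0.36, and RPL36A, at 0.45 ± 0.29, was the 1 ribosomal protein higher in the top library; its guides overlap a readthrough gene.

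Rare and common guides lay closer together in the ribosomal lists than in the proteasome lists, a difference that was not tested. On the small-subunit list, 27 guides with an abundance below -1 had a median ratio of -0.46 and the other 163 had -0.41. On the large-subunit list the medians were -0.19 for 45 rare guides and -0.03 for 240 others. Median target abundance was -0.30 on the small-subunit and -0.38 on the large-subunit list. The part of guide abundance in these ratios was not tested.

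Ribosome assembly factors process rRNA and join it with ribosomal proteins. WDR3 (-0.85 ± 0.51), NOP58 (-0.79 ± 0.44), IMP4 (-0.65 ± 0.51) and NOP14 (-0.46 ± 0.28) were higher in the bottom library, 4 of 9 targets of ribosome assembly, with 0 in the top library and 5 not called. Other processing factors are named from among the lowest H3 calls and not from that list. RCL1, a factor of early 18S rRNA processing, had 2851, 1792, 2096, 1354 and 2591 counts in the bottom and 2027, 933, 1110, 860 and 1392 in the top library, with a mean of -0.98 ± 0.20. PDCD11 (-0.97 ± 0.50) and PWP2 (-0.83 ± 0.90), which also act in small-subunit processing, and POP1 (-0.86 ± 0.49), a subunit of the RNases P and MRP, lay on the same side. The call of PWP2 ended with edgeR and the exact rank sum test, and that of IMP4 under the latter. GNB2L1 (-0.54 ± 0.29), the ribosome-bound scaffold RACK1, was higher in the bottom library as well.

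Subunits of eIF3, which loads mRNA onto the small subunit, were called in both directions. Of 14 targets, also listed apart after values were seen, 4 were called toward the bottom and 2 toward the top library, with a median of -0.23. EIF3I had 1834, 859, 1370, 3282 and 859 counts in the bottom and 1364, 388, 831, 1676 and 809 in the top library, and a mean of -0.87 ± 0.42. EIF3G had -0.81 ± 0.20 and EIF3A -0.62 ± 0.51, while EIF3B (-0.29 ± 0.37) was not called. EIF3D, the cap-binding subunit, went the other way with 1179, 1333, 410, 360 and 1037 counts in the bottom and 1586, 2178, 1856, 915 and 3264 in the top library. All of its guides lay above 0 and its mean was 1.07 ± 0.71. EIF3E, which anchors EIF3D in the complex, had 0.50 ± 0.39, also with every guide above 0. The call of EIF3A ended with edgeR and the exact rank sum test, and so did that of EIF3E. EIF3CL (-0.34 ± 0.46) is a near-identical copy of EIF3C, which had -0.00 ± 0.10, and its value is uncertain; its call ended with edgeR and the exact rank sum test.

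Cap-dependent initiation and elongation factors were mixed. Of 26 targets, 3 were higher in each library, with a median of 0.01. EIF4E (-0.56 ± 0.59), which binds the mRNA cap, EIF4G2 at its P1 start (-0.56 ± 0.26) and EIF4H (-0.35 ± 0.23) were higher in the bottom library. EEF1G (1.00 ± 0.96), a subunit of the elongation factor 1 exchange complex, EIF6 (0.54 ± 0.31), which keeps large subunits apart from small ones, and EIF5A (0.40 ± 0.42) were higher in the top library. The calls of EIF4E, EIF4H and EIF5A ended with edgeR and the exact rank sum test, and that of EEF1G with edgeR.

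Among RNA factors outside translation, CNOT1, on which the CCR4-NOT deadenylase assembles, had 586, 105, 352, 276 and 1296 counts in the bottom and 2526, 427, 1173, 2221 and 2053 in the top library. Its guides lay from 0.47 to 2.81, with a mean of 1.71 ± 0.84. PAN2 of the other cytoplasmic deadenylase, named after its value was seen, had 0.57 ± 0.23 with all guides above 0. Of 7 targets of the U4/U6.U5 tri-snRNP, a list added after values were seen, 6 were called toward the top and 0 toward the bottom library. PRPF4 (0.61 ± 0.45), USP39 at its P1 start, PRPF3 (0.55 ± 0.45), SNRNP200 (0.51 ± 0.22), PRPF8 (0.41 ± 0.38) and PRPF31 (0.40 ± 0.52) made up these calls. Their guides were rare: the median abundance of the list was -0.82, against -0.06 over all H3 targets, and its 15 rare guides had a median ratio of 0.73 against 0.25 for the other 20. The part of low abundance in these calls was not tested. With edgeR the calls of PRPF4, PRPF3, PRPF8, PRPF31 and USP39 ended, and under the exact rank sum test those of PRPF4, PRPF8 and PRPF31.

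CBLL1, the Hakai subunit associated with the m6A RNA methyltransferase, had the lowest mean of all H3 targets. Its guides had 3023, 4255, 3044, 3178 and 1940 counts in the bottom and 1849, 1401, 1131, 1175 and 1106 in the top library, each more frequent in dim cells. The mean was -1.39 ± 0.41 (SD, n = 5 guides; permutation adjusted p 6.78e-04). SYMPK, a scaffold of mRNA 3′ end processing, had 399, 1741, 1193, 2078 and 2360 counts in the bottom and 341, 870, 687, 1015 and 941 in the top library, with a mean of -1.07 ± 0.41. TIAL1 (-0.85 ± 0.32), an RNA-binding protein of stress granules, was on the same side. THOC1 (-0.73 ± 0.22), a subunit of the mRNA export complex THO that is named after its value was seen, was as well. Of 8 targets of the H2A.Z exchange and INO80 complexes, another list added after values were seen, 5 were called toward the bottom and 0 toward the top library. H2AFZ, the gene for the histone variant, had -0.48 ± 0.24, ACTR6 -0.42 ± 0.24, ACTR5 -0.41 ± 0.34, ACTL6A -0.38 ± 0.32 and CFDP1 at its P1 start -0.34 ± 0.24. CFDP1 at its P2 start had 0.27 ± 0.37 and was not called. The calls of ACTR5, ACTL6A and CFDP1 ended with edgeR, and those of ACTL6A and CFDP1 also under the exact rank sum test.

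Mitochondrial import brings in proteins made in the cytosol, and proteases and chaperones keep them folded. Of 23 targets of import and quality control, 3 were called toward the top and 0 toward the bottom library: TIMM9 (0.83 ± 0.40), a chaperone of the intermembrane space, PHB2 (0.70 ± 0.15), a prohibitin of the inner membrane, and HSPE1 (0.45 ± 0.30), the small chaperonin. LONP1, the matrix protease, had 0.77 ± 0.30. PHB2 had 821, 857, 651, 1073 and 1945 counts in the bottom and 1577, 1794, 1168, 2107 and 3073 in the top library, with guides from 0.46 to 0.87. Of 10 ATP synthase targets, a list added after values were seen, ATP5H (0.38 ± 0.35), ATP5I (0.33 ± 0.19) and ATP5G3 (0.33 ± 0.27) were higher in the top library, with 0 targets called toward the bottom. Those calls ended with edgeR. Under the exact rank sum test those of ATP5H and ATP5G3 ended too. HSPE1 shares 3 guides with HSPE1-MOB4.

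Few genes of heme, the cofactor of APEX2, are in H3. Of 4 targets, the mitochondrial carriers SLC25A28 (0.44 ± 0.26), an importer of iron also called mitoferrin 2, and SLC25A40 (0.33 ± 0.27), known as a glutathione carrier, were higher in the top library. The call of SLC25A40 ended with edgeR and the exact rank sum test. ABCB6 (0.10 ± 0.26) was not called, nor was the remaining target of the list, which lay toward the bottom library at -0.27. HCCS, the lyase that attaches heme to cytochrome c, had -0.39 ± 0.16, and CCS, the copper chaperone of superoxide dismutase 1, -0.64 ± 0.46; both are named after their values were seen. The CCS guides had 2491, 2124, 2361, 1776 and 1115 counts in the bottom and 1755, 1466, 1140, 1369 and 1311 in the top library, with 1 guide at 0.04 and the others between -1.25 and -0.57. The call of CCS ended under the exact rank sum test.

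SLC4A2, the chloride and bicarbonate exchanger AE2, was called at both of its starts. The P1 guides had 1872, 1662, 2507, 2481 and 4451 counts in the bottom and 888, 926, 1477, 1747 and 2894 in the top library, with a mean of -0.96 ± 0.22. The P2 guides, about 2942 bases away, had a mean of -0.35 ± 0.31, a call that ended with edgeR and the exact rank sum test. CLCN7, the chloride and proton exchanger of lysosomes, had 2357, 1780, 3525, 2945 and 2220 counts in the bottom and 2076, 1133, 2207, 2005 and 1379 in the top library, with a mean of -0.75 ± 0.21. OSTM1, its obligate partner subunit, named after its value was seen, had -0.35 ± 0.49, with 3 guides between -0.77 and -0.62 and the others at -0.13 and 0.41. Its call held in 11 of 16 alternatives and ended with edgeR and the exact rank sum test. The lysosomal exchanger thus lay on the side opposite to the called V-ATPase subunits.

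UNC50, a membrane protein of the Golgi, had 1794, 2039, 2618, 4701 and 847 counts in the bottom and 1131, 1080, 1352, 2542 and 862 in the top library. Of its guides 4 lay between -1.15 and -0.86 and 1 at -0.17, with a mean of -0.88 ± 0.41. TMED10 (-0.42 ± 0.18), a cargo receptor between the endoplasmic reticulum and the Golgi, and COG3 (-0.34 ± 0.19), of the COG tether, were higher in the bottom library. TMED10 was the 1 call among 18 targets of the COPII and TRAPP list, with a median of -0.01. Of 20 targets of the Golgi tether and golgin list, COG3 was the 1 call toward the bottom. Another 1 was called toward the top library, and the median was 0.04. ARCN1, the delta subunit of the COPI coat, was higher in the top library at 0.48 ± 0.38, a call that ended with edgeR. Of 14 targets of the COPI and ARF GTPase list, 2 were called toward the top and 0 toward the bottom library, with a median of 0.12. LRP8, a lipoprotein and reelin receptor, had 490, 862, 635, 1529 and 781 counts in the bottom and 1345, 1308, 1353, 4044 and 2377 in the top library, with a mean of 1.03 ± 0.40 and every guide above 0. TMEM39A, a membrane protein of the endoplasmic reticulum and lysosomes named after its value was seen, had 0.73 ± 0.30 with guides from 0.40 to 1.12.

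PEX19, the import receptor for peroxisomal membrane proteins, had -0.90 ± 0.69, and DCAF8, an adaptor of cullin 4, has the same 5 guides at its P1 start and thus the same value. These guides had 5876, 6793, 8077, 5547 and 2778 counts in the bottom and 2611, 2958, 3536, 4647 and 3407 in the top library, with 3 between -1.40 and -1.37. At its P2 start, which PEX19 does not share, DCAF8 had 0.22 ± 0.08 and was not called. PEX6 (-0.41 ± 0.34), a peroxisomal export ATPase, was higher in the bottom library too, a call that ended with edgeR and the exact rank sum test. Peroxisome biogenesis, a list added after values were seen, had 7 targets. PEX19 and PEX6 were its 2 calls toward the bottom library, with 0 toward the top and 5 not called. The list's median was 0.01. The PEX19 and DCAF8 calls ended under the exact rank sum test.

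Genes with 2 measured starts allowed a comparison within a gene. There were 235 pairs of starts in 226 genes, and in 20 pairs at least 1 start was called. Both starts were called in 2 pairs, only the first-named start in 17 and only the second in 1. Across the 235 pairs the Pearson r between starts was 0.03, where each pair shares a gene and the libraries but not guides. CHD2, a chromatin remodeller, was called in opposite directions. At its P1 start the mean was 0.38 ± 0.30 and at its P2 start, about 17541 bases away, -0.36 ± 0.24. Both CHD2 calls ended with edgeR and under the exact rank sum test. VPS41, SEC61A1, DCAF8 and USP39 had a called P1 start beside a P2 start between -0.03 and 0.22. Which starts are used in these cells is not known from the counts.

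Neighbouring guides and guide abundance were compared between called and other targets. A guide of some other gene lay within 1000 bases for 20.1% of called targets, where the figure over all H3 targets was 14.2%. In 8 pairs the neighbour was itself called toward the same side. Of these pairs 5 share guides and 3 do not (ATF5 with NUP62, FOXA1 with TTC6, USP5 with CDCA3). DCAF8 with PEX19 and KCTD7 with RABGEF1 have the same guides in the same H3 libraries, which fixes their direction. The partners in the other pairs that share guides were sorted in another sublibrary. FOXA1 (-0.61), a transcription factor, and TTC6 at its P1 start (-0.48), whose guides lie 371 bases away, were the pair within H3 that shares no guides. Median guide abundance was -0.21 in targets called toward the top, -0.13 in those called toward the bottom and -0.05 in those not called. Of the 40 targets with an abundance between -2 and -1, 10 were called toward the top and 2 toward the bottom library. The part of abundance and of neighbouring genes in the calls was not tested.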

How the data were processed

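The authors counted guides in sorted cells and deposited counts per guide (whole numbers, 1 table per library); Bowtie is named in the submitters' processing notes without a version. Guides came from 27 cycles of PCR, per the labels' protocols, without molecular identifiers, so counting intervals would cover counting error only. For each guide, log2 of (count + 1) over the library total was taken in the top and the bottom library, and the median difference among H3 non-targeting guides was subtracted (likewise within each other sublibrary). Guides with at least 50 counts in either library were kept, which removed 1 H3 guide, and targets needed at least 3 guides.

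The mean of a target's guides was tested by a two-sided permutation test with 100000 draws. Each draw took as many guides at random from the target's own and the non-targeting guides together. Benjamini-Hochberg adjustment ran over 18116 targets. The deposited tables give 1 library per group, so guides and not samples are what the test draws on. Alternatives included edgeR 4.0.16 and DESeq2 1.42.0 (R 4.3.3) with guides as blocks, an exact rank sum test, other centrings, pseudocounts, count minimums and guide summaries. Calculations used Python 3.11.15. Tests were tried on simulated data first. H4 was not analysed here, because its top table ends within a guide's name.

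Named targets were the 25 highest and 25 lowest calls with at least 80% of guides on one side, called members of 67 gene lists with up to 4 of their members farthest from 0, DNAJC13, targets with starts that differ, those next to the threshold, and calls that share guides. The members and lists were chosen with earlier results of these data known. Of 67 lists, 4 were split from others and 6 added after values were seen. Some items are not reported here.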

Additional observations from a re-analysis of the deposited data

How the results depend on the processing

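Across 16 alternative settings, 93 of the 249 called H3 targets kept their call in all of them, 52 toward the top and 41 toward the bottom. A further 5 kept it in the 15 settings that could be run for them. With edgeR's quasi-likelihood test 125 targets were called, 71 toward the top and 54 toward the bottom. With the exact rank sum test 148 were called, and 56 of these lay toward the bottom. At a threshold of 0.01, 72 lay toward the bottom. The other alternatives gave between 173 and 281 calls. Signs turned for the called PSMD14, which had -0.0586 with the median of the guides, and for targets near 0 that were not called. With the median of the guides CCT6B had 0.0316, EIF3C 0.0497, VPS33B 0.0150 and VPS41 at P2 -0.0564. Without the guide farthest from 0, CCT6B had 0.0358, EIF3C 0.0313, HSP90AB1 -0.0395, VPS33B 0.0308, VPS35 0.0183 and VPS41 at P2 -0.0635. VPS41 at P2 had -0.00535 centred on all guides, -0.00513 with TMM factors and -0.00537 with median-of-ratios factors. The cause of these changes was not tested. No paired analysis was possible because each group is 1 library.

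With 1 library per group, no value here has a replicate check, and the spread between guides of a target stands in for it. Guides of 1 gene share cells, libraries and target, and their spread mixes differences in repression with counting. Counting alone gave a smaller spread than the non-targeting guides showed, and other limits such as cells per guide were not measured here.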

Other observations

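Several called H3 targets belong to none of the groups above, and those named here were chosen after their values were seen. Chromatin genes toward the top library were HIST2H3C (0.84 ± 0.31), a histone H3 gene with all guides from 0.42 to 1.18, and HIST1H3B (0.71 ± 0.23), another histone H3 gene with guides from 0.47 to 1.02. Histone genes lie in clusters of near-identical copies, so reads and repression at these genes are uncertain. TONSL (0.78 ± 0.20), a histone chaperone of replication forks, had guides from 0.47 to 1.00, and its call ended with edgeR. G3BP1 (0.52 ± 0.19), a core protein of stress granules, and DDA1 (0.56 ± 0.14), a subunit of cullin 4 ligases, also lay toward the top with every guide above 0. So did the endoplasmic reticulum proteins LRRC59 at its P1 start (0.45 ± 0.13), CEPT1 (0.46 ± 0.19), which makes phospholipids, and MOSPD2 (0.45 ± 0.17), which holds organelle contacts.

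Toward the bottom library, TM9SF2 (-0.42 ± 0.15), a Golgi membrane protein, and GALNT2 (-0.45 ± 0.29), which starts mucin-type O-glycans, had every guide below 0. CNOT4 (-0.47 ± 0.15), a ubiquitin ligase associated with CCR4-NOT, did as well, with guides from -0.72 to -0.33, on the side opposite to CNOT1. These calls of TM9SF2, GALNT2 and CNOT4 held in each of 16 alternatives.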
